A study of Mus musculus with 6 samples.

Results

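Ubiquitin-conjugating enzymes (E2) and deubiquitinating enzymes attach and remove ubiquitin, and their mRNAs were followed here as 1 set of genes through the loss of olfactory sensory neurons (OSNs). Genes entered the set by symbol alone, namely those whose symbol begins with Ube2, Uchl or Usp followed by the letter or number of a family member, with Usp18 left out and with only probe sets that carry 1 gene symbol. The rule found 78 of the 16380 genes on the array, 31 Ube2 genes and 47 Uchl or Usp genes, measured by 1190 probe sets. Of these, 72 passed the filter on low signal, 30 Ube2 and 42 Uchl or Usp genes. The other members, Ube2dnl1, Usp17la, Usp17lb, Usp26, Usp29 and Usp50, lay among the lowest 10% of genes by mean signal and were not tested. Usp6nl is named for its likeness to a deubiquitinase and encodes a GTPase-activating protein for Rab GTPases. It stayed in the set because its symbol fits the rule.

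The tissue was olfactory epithelium of 3 male C57BL/6 mice, 8 weeks old by the sample labels (the study's methods give a younger age), taken 5 days after the olfactory bulb was removed on one side (OBX). OSN axons end in the bulb and are lost with it, so the ipsilateral epithelium (OBX) of each mouse was set against the contralateral epithelium (control), which kept its bulb in an animal that had also undergone surgery. Each epithelium went on its own Affymetrix Mouse Exon 1.0 ST array, whose probe sets each read a stretch of 1 exon, which gave 3 OBX and 3 control arrays. No genotype or drug treatment was compared, and each mouse gives 1 difference, so n = 3 mice throughout. Values are log2 signals, differences are log2 OBX minus log2 control, and the probes of different genes bind differently, so levels are compared between sides and not between genes.

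Ubiquitin is a small protein that an activating enzyme (E1) loads onto an E2, and the E2, usually with a ubiquitin ligase (E3), places it on a target protein, where chains of it can send the target to the proteasome. Deubiquitinases of the ubiquitin-specific protease (USP) and ubiquitin C-terminal hydrolase (UCH) families take it off again, which can spare a target, recycle ubiquitin or alter signalling and chromatin. Neurons rely on this system for the turnover of synaptic and axonal proteins, and dividing cells use it to destroy cyclins and other mitotic proteins on time.

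Most of these mRNAs differed little between the sides. Of the 72 members tested, 5 were lower on the OBX side and 4 were higher (limma, adjusted over all genes tested, threshold 0.05), while 63 did not pass the test. That is 12.5% of the members, where 22.6% of all 14742 genes tested passed, 12.7% lower and 9.89% higher. The members lower on the OBX side were Usp21, Ube2o, Usp20, Usp49 and Uchl1, and those higher were Usp13, Ube2c, Usp11 and Ube2d2b. The median difference over members was -0.02 and over all genes -0.01, and it was -0.02, -0.03 and 0.02 over members in mice 1, 2 and 3. Without mouse 3, 2 members were lower and 0 higher, and without mouse 1, 4 were lower and 2 higher. Without mouse 2, 7 of the 9 calls were kept and 2 other members passed. Over all 14742 genes tested, 820 were lower and 63 higher without mouse 3, and 1548 and 981 without mouse 1. With all 3 mice these all-gene counts were 1877 and 1458, so calls were lost across the array and not in the members alone. The split of the members moved with the scaling of the arrays, to 7 lower and 1 higher when ribosomal protein genes set the centre of each array and to 13 lower and 1 higher with arrays scaled on the deviation of those genes. Calls over all 14742 genes tested moved the same way, to 2170 lower and 511 higher and to 4010 lower and 257 higher. In bulk tissue, fewer cells of a type and less RNA per cell cannot be told apart.

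**Figure D1:**
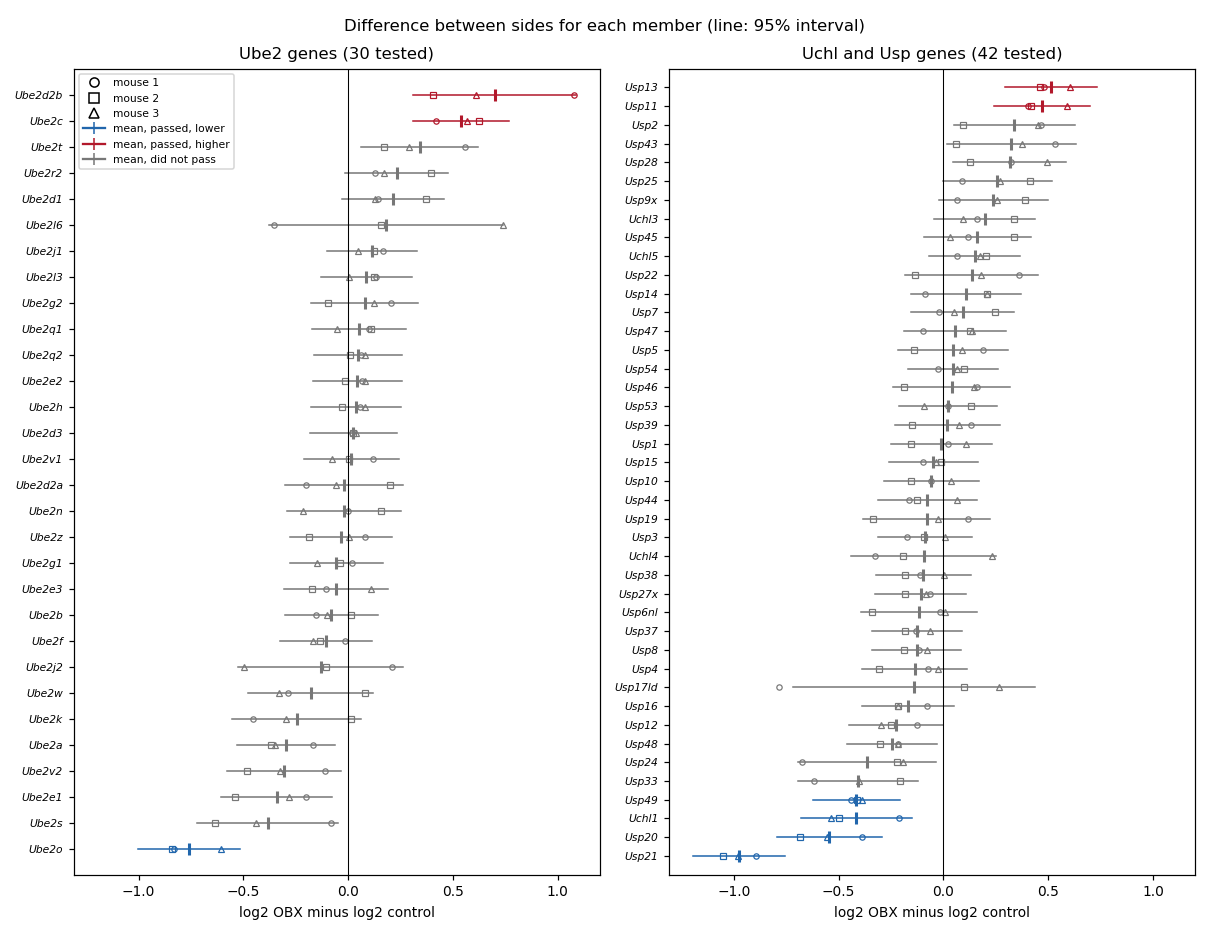
Differences between sides for the 72 members tested, Ube2 genes on the left and Uchl and Usp genes on the right. The x axis is log2 OBX minus log2 control, open symbols are the 3 mice, the upright tick is the mean and the line its 95% interval, and colour marks the 5 members that passed the test as lower and the 4 that passed as higher.

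For the 63 members that did not pass, the 95% interval of the difference lay within a 2-fold change in either direction for 63 and within a 1.5-fold change for 53. The estimated difference itself was under 1.2-fold for 53 of them. These intervals reached a median of 0.245 on the log2 scale to either side of the estimate. At an unadjusted p under 0.05, 13 members were lower and 8 higher, where 2888 and 2818 of all 14742 genes tested were. All 3 OBX arrays lay below all 3 control arrays for 11 of the 72 members and above them for 12, where each of these patterns was found in 20.7% of all genes tested. Array medians over probe sets were 8.37 to 8.51 for control and 8.37 to 8.55 for OBX.

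Cell type markers moved between the same samples, where 12.7% of all 14742 genes tested were lower and 9.89% higher. All 12 measured markers of mature OSNs were lower on the OBX side, with a median difference of -1.39 and a mean level of 12.43 to 12.64 on the control arrays and 10.60 to 11.54 on the OBX arrays. Of the mitosis genes 20 of 22 were higher (median difference 0.83, mean level 7.50 to 7.92 against 8.37 to 8.53), and of the macrophage markers 10 of 23 were higher and 0 lower (median difference 0.75, mean level 8.20 to 8.58 against 8.84 to 9.72). The difference was -1.01 for Omp, the marker protein of mature OSNs, 1.09 for the macrophage marker Cd68 and 0.97 for the proliferation marker Mki67. Globose basal cell and precursor markers were higher for 7 of 13 genes and horizontal basal cell markers for 6 of 8, while of the 14 immature OSN markers 1 was lower and 1 higher. Of 13 sustentacular and gland markers 5 were higher and 0 lower (median difference 0.31). Of 12 interferon response genes 4 were higher and 3 lower. The part of these shifts in the values of the enzymes was not tested.

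Usp21, a deubiquitinase that can act on histone H2A, showed the deepest fall of the 72 members tested. Its log2 signal was 10.88, 10.62 and 10.83 in the control epithelia of mice 1, 2 and 3 and 9.98, 9.56 and 9.85 in their OBX epithelia. Every OBX array lay below every control array, and the mean fell from 10.77 ± 0.14 to 9.80 ± 0.21 (SD, n = 3 mice). Within mice the differences were -0.89, -1.05 and -0.98, a mean of -0.98 (SE 0.0854, limma adjusted p = 0.00449), or a ratio of OBX to control of 0.509. All 18 of its probe sets were lower on the OBX side. Usp21 stayed under the threshold when any single mouse was left out, with a limma adjusted p from 0.0106 to 0.0318.

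Ube2o encodes a large E2 that can also act as its own ligase and that clears proteins during the maturation of red blood cells. Its signal was 9.81, 9.35 and 9.45 on the control arrays and 8.98, 8.51 and 8.85 on the OBX arrays, in the order of mice 1 to 3, and the sides did not overlap. The fall was 0.83, 0.84 and 0.61 by mouse, with a mean difference of -0.76 (SE 0.0937, limma adjusted p = 0.00925), a ratio of 0.591. Each of its 25 probe sets was lower. As for Usp21, no single mouse decided the call (limma adjusted p from 0.0254 to 0.0465 with 1 mouse left out). Ube2o was the only E2 gene of the 30 tested that passed the test as lower.

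Usp20 and Usp33 encode closely related deubiquitinases, known for returning the beta-adrenergic receptor to the cell surface. Usp20 signal was 9.41, 9.07 and 9.30 in control epithelium and 9.02, 8.39 and 8.75 in OBX epithelium, with no overlap, a mean difference of -0.54 (SE 0.0972, limma adjusted p = 0.0221) and 29 of 29 probe sets lower. Usp33 signal was 11.19, 10.90 and 10.87 in control and 10.57, 10.69 and 10.47 in OBX epithelium, likewise with no overlap and with 29 of 29 probe sets lower. Its mean difference of -0.41 missed the threshold (SE 0.111, limma adjusted p = 0.0582) and passed it only without mouse 2 among the mice left out (0.0464). Without mouse 3 the Usp20 difference also missed it (limma adjusted p = 0.148). The fall was deeper for Usp20 in mice 2 and 3 and for Usp33 in mouse 1, and the difference between the pair averaged -0.13 ± 0.36 (SD, n = 3 mice).

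Usp49, whose product removes ubiquitin from histone H2B, had the most even differences of the called members. The signal was 9.12, 8.90 and 9.05 on the control side and 8.68, 8.49 and 8.66 on the OBX side. The sides did not overlap, and the differences were -0.44, -0.41 and -0.39, with a mean of -0.41 (SE 0.0809, limma adjusted p = 0.0275) and 13 of 13 probe sets lower. Usp49 missed the threshold whenever a mouse was left out (limma adjusted p = 0.0821, 0.0532 and 0.196 without mice 1, 2 and 3).

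The UCH family has 4 members here, and Uchl1, a hydrolase abundant in neurons and long used as a neuronal marker under the name PGP9.5, was the only one of them to pass. Its signal was 12.12, 11.89 and 12.21 on the control arrays and 11.90, 11.39 and 11.68 on the OBX arrays, so that the OBX array of mouse 1 lay just above the control array of mouse 2. The differences were -0.21, -0.50 and -0.53 (mean -0.41, SE 0.103, limma adjusted p = 0.0475), and 9 of 9 probe sets were lower. That call stood close to the threshold and was lost without mouse 2 (limma adjusted p = 0.107) or mouse 3 (0.292). Uchl3, a hydrolase of ubiquitin and of the ubiquitin-like protein Nedd8, had OBX values all above its control values, with a difference of 0.20 that did not pass (SE 0.0929, limma adjusted p = 0.189). Uchl5, which works on the proteasome and on a chromatin remodeller, differed by 0.15 (SE 0.0846, limma adjusted p = 0.26). For Uchl4, a near copy of Uchl3, only 1 probe set carries its symbol alone, and its difference of -0.09 had no common sign across mice.

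Among the members that rose, Ube2c is the E2 that starts ubiquitin chains on the targets of the anaphase-promoting complex, the ligase that ends mitosis. Ube2c signal was 8.44, 7.95 and 7.89 in control epithelium and 8.86, 8.58 and 8.46 in OBX epithelium. The lowest OBX value, in mouse 3, was just above the highest control value, in mouse 1, and within each mouse the rise was 0.42, 0.62 and 0.57 (mean 0.54, SE 0.0889, limma adjusted p = 0.0183), a ratio of 1.45. Of its 8 probe sets, 7 were higher. Without mouse 3 the limma adjusted p was 0.145, and with the median of its probe sets as the gene value the difference was 0.25 (limma adjusted p = 0.247).

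The other E2 genes with roles in division and DNA repair did not share one direction. Ube2s, which extends the chains that Ube2c starts, had a difference of -0.38 that did not pass (SE 0.13, limma adjusted p = 0.0986), from a signal of 11.04, 10.77 and 11.11 to one of 10.96, 10.14 and 10.68. It rests on 3 probe sets, of which 2 were lower and 1 higher, and the sides overlapped. Ube2t, the E2 of the Fanconi anemia repair pathway, differed by 0.34 (SE 0.108, limma adjusted p = 0.0849), from 6.71, 6.53 and 6.59 to 7.27, 6.70 and 6.88. Ube2t was thus above its own control value in each mouse and Ube2s below it, although neither passed the test.

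Usp13, a deubiquitinase with roles in protein quality control, and Usp11, which acts in DNA repair and in TGF-beta signalling, were the USP genes that rose. Usp13 signal was 5.34, 5.27 and 5.16 on the control arrays and 5.82, 5.73 and 5.76 on the OBX arrays, with no overlap. Its difference was 0.48, 0.46 and 0.60 by mouse (mean 0.51, SE 0.0851, limma adjusted p = 0.0183), and 29 of 31 probe sets were higher. Usp11 signal was 7.94, 7.82 and 7.69 on the control arrays and 8.34, 8.24 and 8.28 on the OBX arrays. These groups were also apart, with differences of 0.40, 0.42 and 0.59 (mean 0.47, SE 0.0889, limma adjusted p = 0.0254) and 21 of 23 probe sets higher. Without mouse 3 the limma adjusted p was 0.165 for Usp13 and 0.209 for Usp11, and without mouse 1 it was 0.0566 for Usp11. When arrays were centred on ribosomal protein genes, which lowered the median difference of all genes from -0.01 to -0.12, Usp13, Usp11 and Ube2c kept their sign but missed the threshold (limma adjusted p = 0.0566, 0.0792 and 0.0723). Scaling on the deviation of those genes lowered the differences further, to 0.29 for Usp13, 0.25 for Usp11 and 0.32 for Ube2c (limma adjusted p = 0.103, 0.16 and 0.122).

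The last member to pass was Ube2d2b, which encodes a near copy of the widely used E2 Ube2d2a and whose rat counterpart was described in testis. Its signal was 5.08, 5.57 and 5.38 in control and 6.16, 5.98 and 6.00 in OBX epithelium, a difference of 0.70 (SE 0.15, limma adjusted p = 0.0343). The sides did not overlap, but the value comes from 2 probe sets, and near copies of a gene can share signal on an array, so it is uncertain which copy was measured. Ube2d2a itself differed by -0.02 (SE 0.11, limma adjusted p = 0.917). The Ube2d2b call was lost without mouse 1 (limma adjusted p = 0.0582) and without mouse 3 (0.124).

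**Figure D2:**
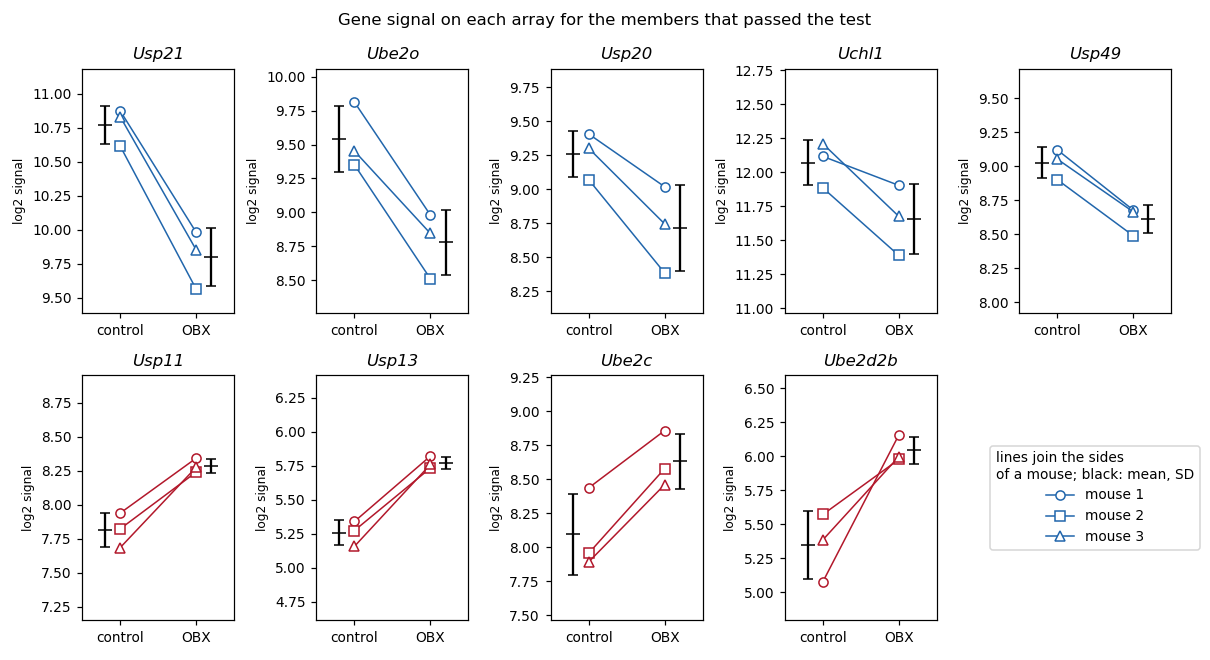
Log2 signal on each array for the 9 members that passed the test, 5 lower in blue on top and 4 higher in red below. Lines join the control and OBX epithelium of 1 mouse, black bars give the mean and SD of each side, the y axes cover the same span from different starting levels, and only Uchl1 has an OBX value above a control value among the members that fell.

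By role, no group of members moved as a block, where 22.6% of all genes tested passed. These groups hold few genes, so a count of 0 passing says little about a role. Of the 7 genes of the Ube2d and Ube2e families, which supply many ligases, Ube2d2b alone passed. Ube2e1 came nearest among the others, with its OBX arrays all below its control arrays and differences of -0.20, -0.54 and -0.28, a mean of -0.34 (SE 0.103, limma adjusted p = 0.0753). Ube2d3 had the most even differences of the 72, with differences of 0.02, 0.02 and 0.04. Of the 5 E2 genes of DNA damage tolerance 0 passed, with differences of -0.30 for Ube2a (limma adjusted p = 0.077) and -0.31 for Ube2v2 (limma adjusted p = 0.103). Ube2v2, a partner without enzyme activity that lets Ube2n build the ubiquitin chains used in DNA repair, was lower in 11 of 11 probe sets. Neither of the E2 genes for ubiquitin-like proteins passed. Ube2l6, the E2 for the interferon-induced modifier ISG15, differed by -0.35, 0.16 and 0.74 in mice 1, 2 and 3, the widest spread of any E2 gene tested, and Ube2f, an E2 for Nedd8, differed by -0.11 (SE 0.0854, limma adjusted p = 0.414).

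Among the USP genes, 1 of 12 with roles in chromatin, DNA repair and the cell cycle passed (Usp49, lower), 1 of 8 with roles at endosomes and membrane receptors (Usp20, lower) and 1 of 5 with roles in the proteasome and protein quality control (Usp13, higher). These shares were 8.33%, 12.5% and 20%, where 22.6% of all genes tested passed. Usp48 had control values of 9.98, 9.98 and 9.97 and OBX values of 9.77, 9.67 and 9.76, a difference of -0.25 with an SE of 0.0824 (limma adjusted p = 0.0965). Those sides did not overlap, but the difference missed the threshold. Usp2, a gene known for its daily rhythm of expression, had a difference of 0.34 with the same separation (SE 0.112, limma adjusted p = 0.0933). Usp9x, an X-linked deubiquitinase of endosomal and adhesion proteins, was higher in 57 of 58 probe sets with a difference of only 0.24 (SE 0.1, limma adjusted p = 0.154). Usp39, a splicing protein without protease activity, Usp53 and Usp54 differed by 0.02, 0.02 and 0.05.

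Exons of 1 gene are read by separate probe sets, which are not replicates of each other but show how evenly a difference ran along the gene. Among the 61 members with at least 8 probe sets, all probe sets were lower for 8, namely Usp21, Ube2o, Usp20, Usp33, Usp49, Uchl1, Ube2k and Ube2v2. All were higher for 0. Over all 10239 genes with as many probe sets, 12.6% were lower and 11.9% higher in every one.

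Close relatives were set side by side within each mouse, as the difference of one gene minus that of its relative. Usp11 stood above Usp4 by 0.48, 0.73 and 0.62 in the 3 mice (mean 0.61 ± 0.12 SD) and above Usp15 by 0.50, 0.43 and 0.63 (mean 0.52 ± 0.10 SD). These 3 enzymes share their domain layout, and Usp4 and Usp15 differed between sides by -0.14 and -0.05 (limma adjusted p = 0.36 and 0.699). Uchl1 minus Uchl3 was -0.61 ± 0.23 (SD), and Usp5, which disassembles free ubiquitin chains and is the nearest relative of Usp13, had a value of -0.47 ± 0.16 when Usp13 was taken from it. Ube2v1 minus Ube2v2 was 0.32 ± 0.15, and Ube2e1 minus Ube2e3 was -0.28 ± 0.16. Of the 15 pairs, 9 had the same sign in 3 mice. With 3 mice an exact two-sided permutation test cannot give a p below 0.25, the value it gave for these 9, and the adjusted p over the 15 pairs was 0.417 or higher.

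**Figure D3:**
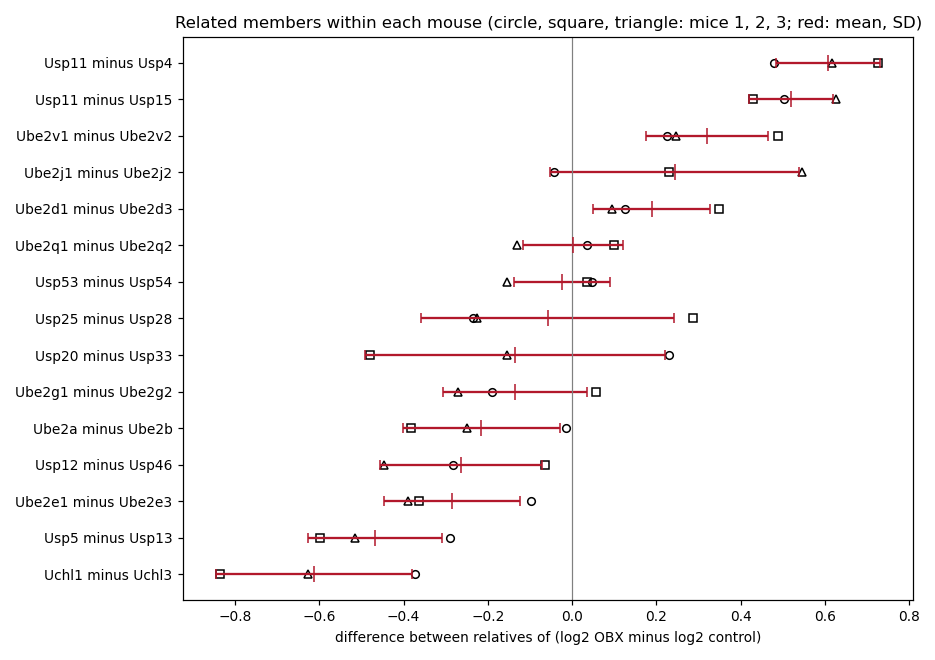
Related members within each mouse, as the side difference of the first gene minus that of the second. The x axis is on the log2 scale, black symbols are mice 1 to 3, and red lines give the mean and SD; both Usp11 pairs lie above 0 and the Uchl1 and Usp5 pairs below 0 in 3 of 3 mice.

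A test of exon usage asks whether single probe sets of a gene move apart from the rest of that gene. Of the 67 members that could be tested, 4 passed (limma diffSplice, Simes test per gene), where 7.99% of all 13357 genes tested did. They were Usp14 (adjusted p = 0.000556), the deubiquitinase bound to the proteasome, Usp12 (0.000623), which works with Wdr48 in a complex, Usp21 (0.00863) and Ube2q1 (0.0108). In each of them 1 probe set carried the call. The Usp14 probe set read 5.49, 6.39 and 5.33 in control and 3.58, 4.58 and 5.28 in OBX epithelium, -1.42 relative to the rest of the gene, with a fall of nearly nothing in mouse 3. The Usp12 probe set read 5.35, 5.27 and 5.28 in control and 6.97, 6.47 and 5.50 in OBX epithelium, 1.28 relative to a gene that as a whole had a difference of -0.22. In Usp21, 1 probe set stayed closer to its control level (9.62, 9.87 and 9.83 against 9.59, 9.31 and 9.78) while the gene fell, and in Ube2q1, 1 probe set read 6.72, 7.28 and 7.50 in control and 7.83, 8.07 and 7.79 in OBX epithelium while the gene differed by 0.05. The Usp14, Usp21 and Ube2q1 calls were lost whenever a mouse was left out (diffSplice adjusted p = 0.0556, 0.669 and 0.997 for Usp14, 0.113, 0.0619 and 0.0675 for Usp21 and 0.152, 0.118 and 0.133 for Ube2q1, without mice 1, 2 and 3). The Usp12 call was lost without mouse 1 (0.0826). The exons these probe sets read were not identified here.

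**Figure D4:**
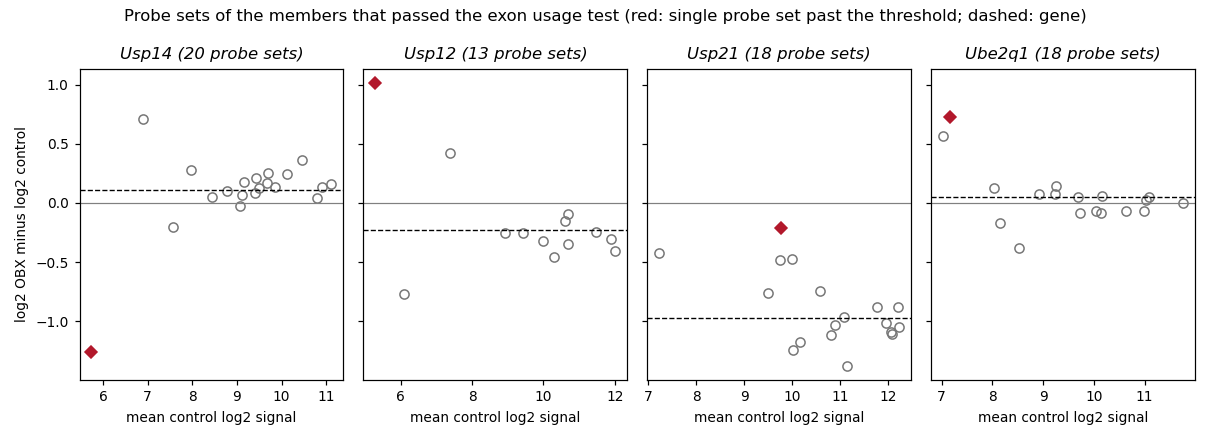
Probe sets of the 4 members that passed the exon usage test. The x axis is the mean control log2 signal of a probe set and the y axis its log2 OBX minus log2 control, each point is 1 probe set (mean of 3 mice), the dashed line is the gene's own difference and the red diamond is the probe set that passed. The Usp14 and Usp12 diamonds lie at the low end of their gene's signal, at differences of -1.26 and 1.02.

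The rest of the pathway was read from lists of its other parts, beside 12.7% lower and 9.89% higher among all 14742 genes tested. Of 31 genes of the 26S proteasome, the particle that degrades ubiquitinated proteins, 0 passed in either direction (limma, with 0 also at an unadjusted p under 0.05), with a median difference of -0.05. Of 6 activating enzyme genes, Uba7 was higher (0.51, SE 0.0974, limma adjusted p = 0.0259) and Sae1 lower (-0.38, SE 0.0909, limma adjusted p = 0.0424). Uba7 activates ISG15 and Sae1 is part of the activating enzyme of SUMO, so neither is an activating enzyme of ubiquitin. Of 7 E2 genes outside the rule 0 passed (limma, with 0 at an unadjusted p under 0.05), and of 23 deubiquitinases of other families Mindy1 alone passed, which was higher by 0.39 (SE 0.0818, limma adjusted p = 0.0323).

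Of 38 ligase genes, 3 were lower and 3 higher, where 12.7% of all 14742 genes tested were lower and 9.89% higher. The ligases thus passed no more often than genes at large. Siah2, a RING ligase of the response to low oxygen, fell by 0.56, 0.85 and 0.94 in the 3 mice (mean difference -0.78, limma adjusted p = 0.0119), and Herc3 fell by 0.54 on average (limma adjusted p = 0.0176). Nedd4, a ligase of membrane proteins, rose by 0.44 (limma adjusted p = 0.0311). The others that passed, Fancl (-0.40), Uhrf1 (0.62) and Smurf2 (0.33), were named after their values were seen. Of 15 genes of the anaphase-promoting complex and its activators, the ligase that Ube2c serves, Cdc27 alone passed, higher by 0.36 (limma adjusted p = 0.0402). That is 1 of 15, where 9.89% of all genes tested were higher. The activator Cdc20 differed by 0.93, 0.19 and 0.96 and missed the threshold (mean 0.69, limma adjusted p = 0.0523). Of 5 genes of the immunoproteasome, the form of the proteasome that produces peptides for antigen presentation, 2 were higher, beside the same 9.89% of all genes. They were Psmb9 by 0.46 (limma adjusted p = 0.0381) and Psme1 by 0.36 (limma adjusted p = 0.0433), and the list's median difference was 0.34. Fanci, a substrate of the deubiquitinase Usp1, was the only cofactor or substrate of 6 to pass (0.41, limma adjusted p = 0.0371), and Usp1 itself differed by -0.01. Without mouse 3, the calls of Uba7, Sae1, Mindy1, Herc3, Siah2, Nedd4, Cdc27, Psmb9, Psme1 and Fanci were lost (limma adjusted p from 0.0835 for Siah2 to 0.251 for Psme1). Siah2 and Herc3 passed without mouse 1 (0.0151 and 0.0440) and without mouse 2 (0.0335 and 0.0393), and Fanci passed without mouse 2 (0.0422) but not without mouse 1 (0.112). The other 7 calls were lost whichever mouse was left out (limma adjusted p from 0.0523 for Psmb9 without mouse 2 upward).

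**Figure D5:**
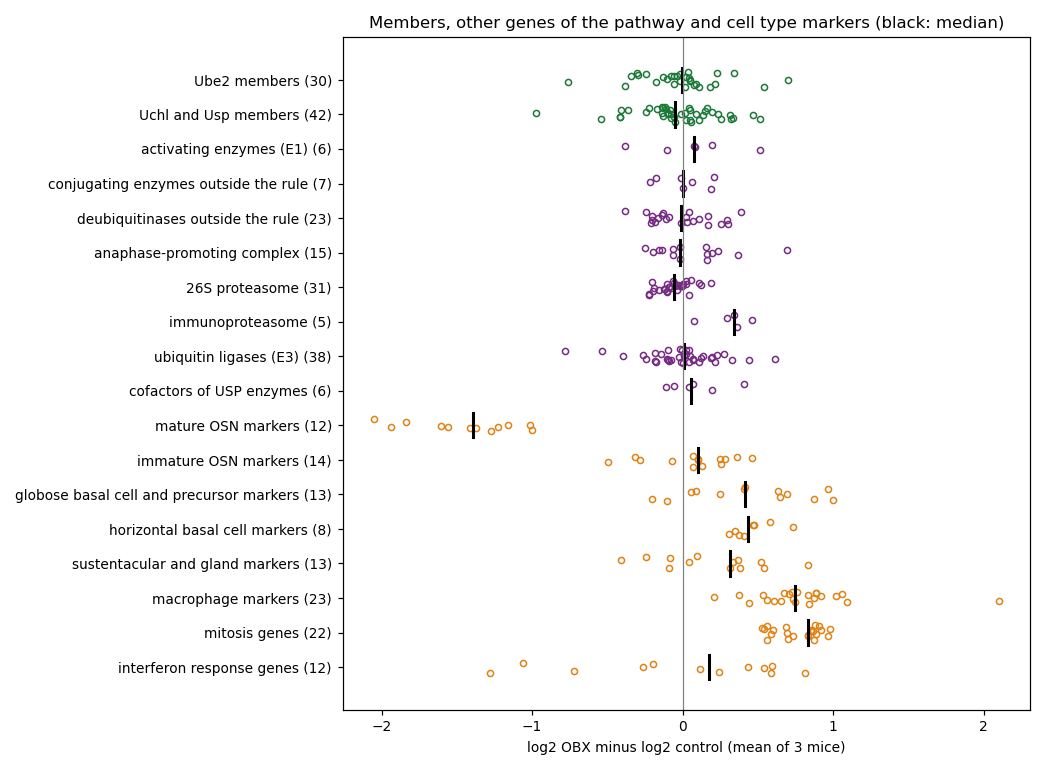
Side differences of the Ube2 members, the Uchl and Usp members, other parts of the ubiquitin pathway and cell type markers. The x axis is log2 OBX minus log2 control (mean of 3 mice), each circle is 1 gene, black bars are medians and numbers in brackets count the genes tested. The medians of the Ube2 members, the Uchl and Usp members and the 26S proteasome lie near 0, while that of the immunoproteasome is 0.34, that of the mature OSN markers -1.39 and that of the mitosis genes 0.83.

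Promoters of members that rose (Ube2c and Usp11) and of members that fell (Usp21 and Uchl1) are shown side by side. RefSeq (build GRCm38.p6) gave a promoter window for 62 of the 78 members, 72 windows of 300 bases in all, from 250 before the start of transcription to 50 after it. The window of Ube2c is the one with the most motif matches among the 8 windows of members that passed the test. The windows of Usp21 and Uchl1 are the only ones of these 8 without a match. Usp20 and Usp49 also fell and their windows hold matches, so the printed windows do not set members that rose apart from members that fell. The windows were searched on both strands for CCAAT (the CCAAT box, bound by NF-Y), TTTGAA and TTCGAA (forms of the cell cycle homology region), TTTNNCGC (an E2F site) and the Ebf site of olfactory neuron promoters. Capitals mark every match, on either strand, in the 250 bases before the start of Ube2c at chr2:164769679-164769928 (plus strand), Usp11 at chrX:20703659-20703908 (plus strand), Usp21 at chr1:171287962-171288211 (minus strand) and Uchl1 at chr5:66675871-66676120 (plus strand), each written 5′ to 3′ toward the start of its gene.
Ube2c: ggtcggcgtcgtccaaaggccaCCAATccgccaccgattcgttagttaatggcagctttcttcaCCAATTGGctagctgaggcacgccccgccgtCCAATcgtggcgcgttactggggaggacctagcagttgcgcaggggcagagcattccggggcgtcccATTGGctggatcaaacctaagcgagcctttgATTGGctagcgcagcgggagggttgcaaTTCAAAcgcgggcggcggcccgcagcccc
Usp11: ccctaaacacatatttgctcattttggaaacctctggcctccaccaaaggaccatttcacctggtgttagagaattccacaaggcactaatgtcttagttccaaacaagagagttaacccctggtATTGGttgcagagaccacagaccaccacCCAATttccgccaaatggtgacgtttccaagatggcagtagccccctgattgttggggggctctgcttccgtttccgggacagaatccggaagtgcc
Usp21: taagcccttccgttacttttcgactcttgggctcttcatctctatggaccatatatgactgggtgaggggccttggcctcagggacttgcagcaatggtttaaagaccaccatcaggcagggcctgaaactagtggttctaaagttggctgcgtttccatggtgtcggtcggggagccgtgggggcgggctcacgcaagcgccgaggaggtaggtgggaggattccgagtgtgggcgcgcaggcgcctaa
Uchl1: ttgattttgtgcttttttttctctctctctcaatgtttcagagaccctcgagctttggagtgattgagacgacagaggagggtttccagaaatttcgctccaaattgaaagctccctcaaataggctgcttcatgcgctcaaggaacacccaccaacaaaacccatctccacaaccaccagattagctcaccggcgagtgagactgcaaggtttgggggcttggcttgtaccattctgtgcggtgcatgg
The Ube2c window holds 6 CCAAT matches, of which a pair shares letters as a palindrome, and 1 TTTGAA match on the reverse strand 29 bases before the start. Usp11 holds 2 CCAAT matches, and the Usp21 and Uchl1 windows hold 0 matches of any of the motifs searched. Usp13 and Usp49 each hold 1 CCAAT match, Usp20 holds 1 TTCGAA match and 1 CCAAT match, and Ube2d2b holds 1 TTTGAA match and 1 CCAAT match. Ube2o has no window in the table. CCAAT was found in 27.8% of the member windows and in 37.4% of all 32851 windows, TTTGAA in 11.1% and 17.9%, TTCGAA in 2.78% and 1.56%, TTTNNCGC in 6.94% and 5.17%, and the Ebf site in 0% and 0.904%. A match is a description of the letters and not a site that was measured.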

How the data were processed

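Olfactory epithelium from 3 mice was measured on 6 arrays. The deposited log2 values came from the authors' RMA step in Affymetrix Expression Console, with 1 value per exon-level probe set (versions and build: not given in the sources used here). Gene values were made by Tukey's median polish of the 209279 of 229581 probe sets with 1 gene symbol (4446 have several, 15856 none). Symbols were updated with RefSeq (14190 current, 2120 updated, 25 kept because an update would merge genes, 45 not found), after which 78 genes fit the rule, 76 before and 74 in both. The lowest 10% of genes by mean signal were dropped, and side was fitted with mouse as a block in R 4.3.3 with limma 3.58.1 (lmFit, eBayes), two-sided, with Benjamini-Hochberg adjustment over all genes and a threshold of 0.05. Intervals are 95% intervals of the fit. Exon usage used diffSplice on genes with at least 4 probe sets. The R package data.table (version 1.17.8) read the tables, and matplotlib 3.10.9 under Python 3.11.15 drew the plots. The gene and exon usage fits were tested on simulated data.

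The pairing comes from the labels and methods. After removal of side means, both sides of a mouse had a correlation over genes of r = -0.07, 0.27 and 0.24, and the differences correlated between mice at r = 0.693 to 0.826. Without the mouse as a block, 3 members in place of 5 were lower and 3 in place of 4 higher. Over all 14742 genes tested, 1543 in place of 1877 were lower and 1285 in place of 1458 higher.

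The members and lists were chosen with earlier results of these data known. Named by rule were the members that passed (up to 12 by smallest p in each direction), the Uchl genes, members of 3 role groups, members called for exon usage, the relatives compared, up to 3 genes of each list by smallest p, and Omp, Cd68 and Mki67. Usp2, Usp9x, Usp39, Usp48, Ube2k and the members not tested were chosen after their values were seen. Ube2d2a and Usp1, given beside Ube2d2b and Fanci, were not named by rule either. Alternatives were another test, threshold, filter, normalization or gene summary, and leaving out each mouse. The ubiquitin precursor genes and raw array files were not analysed here.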

Additional observations from a re-analysis of the deposited data

Results flagged for a closer look

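The 8 probe sets that carry the symbols of both Uchl3 and Uchl4 were left out of the gene values, since they cannot be assigned to 1 gene. They showed a difference in data outside the comparison, with a mean log2 OBX minus log2 control of 0.35, 0.37 and 0.48 in mice 1, 2 and 3, or 0.398 ± 0.0735 (SD, n = 3 mice, exact two-sided permutation p = 0.25, the smallest that 3 mice allow). Their mean log2 signal was 6.52 on the control side and 6.91 on the OBX side. The 4 probe sets of Uchl3 alone gave a gene difference of 0.20, and the single probe set of Uchl4 alone -0.09. Another 13 probe sets shared by Ube2j2 and an unnamed gene model had a mean difference of 0.04 ± 0.24, with signs that differed between mice.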

How the results depend on the processing

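Limits came from 3 mice, low signals and the scaling of the arrays. None of the 9 members that passed changed sign under any alternative run, and Usp21 and Ube2o passed under each except the methods' paired t-test after Benjamini-Hochberg adjustment, which left 0 members lower and 0 higher and 1 of all 14742 genes tested. Over the 68 genes named by rule, 878 alternative values kept direction and side of the threshold, 112 fell below it and 54 rose past it. The other 39 changed sign, each for a gene that had not passed the test, most of them with arrays centred or scaled on ribosomal protein genes. Where a count moved by over 1.5 times the cause was not tested, except that a looser threshold acts by construction.

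Leaving out 1 mouse gave 2 to 4 members lower and 0 to 5 higher, 1 E2 gene lower in each case and 0 to 2 higher, 1 to 3 Uchl or Usp genes lower and 0 to 3 higher, and 1 to 3 members with exon usage. Without mouse 3, only Usp21 and Ube2o still passed, while calls over all 14742 genes tested fell from 1877 to 820 lower and from 1458 to 63 higher. Without the mouse as a block (no pairing), 3 members were lower, of which 2 were Uchl or Usp genes, 1 E2 gene was higher and 2 members passed for exon usage. Of all 14742 genes tested, 1543 were lower and 1285 higher without the block. Of the 9 calls 6 were kept, and Uchl1, Usp20 and Ube2c were lost (limma adjusted p = 0.108, 0.0718 and 0.0738). By the methods' paired t-test after adjustment, 0 E2 genes and 0 Uchl or Usp genes were lower or higher. At an unadjusted p under 0.05, the threshold of the study's methods, 2 E2 genes were lower and 1 higher. Of all 14742 genes tested, 2236 were lower and 1619 higher by the same paired t-test. That threshold kept 7 of the 9 calls, while Uchl1 and Ube2d2b missed it (paired t-test, unadjusted p = 0.0549 and 0.0728). At an adjusted p under 0.20, 14 members were lower (6 E2 genes, 8 Uchl or Usp genes) and 13 higher (5 E2 genes, 8 Uchl or Usp genes), where 3544 of all 14742 genes tested were lower and 3469 higher. With the lowest 30% of genes left out, 2 members were higher (1 E2 gene, 1 Usp gene), since Usp13 and Ube2d2b were then not tested. Of the 11466 genes then tested, 1712 were lower and 1596 higher. With trend and robust fitting, 2 E2 genes were lower, where 2047 of all 14742 genes tested were lower and 1652 higher. With medians of probe sets, 2 members were higher, the E2 genes Ube2d2b and Ube2t, with 0 Uchl or Usp genes higher and 3 E2 genes lower. Over all 14742 genes tested, these medians gave 1560 lower and 934 higher. The calls of Ube2c, Usp11, Usp13 and Uchl1 were lost (limma adjusted p = 0.247, 0.182, 0.0911 and 0.112). Centring on 66 ribosomal protein genes gave 3 E2 genes lower and 1 member higher (1 E2 gene, 0 Uchl or Usp genes), and moved the median of all genes to -0.12 and the share of higher genes among all calls from 43.7% to 19.1%. With that centring, 2170 of all 14742 genes tested were lower and 511 higher. Scaling on the median deviation of those ribosomal protein genes gave 13 members lower (5 E2 genes, 8 Uchl or Usp genes) and 1 higher (1 E2 gene, 0 Uchl or Usp genes), with a median of all genes of -0.24 and 6.02% of calls higher. With that scaling, 4010 of all 14742 genes tested were lower and 257 higher. Leaving out Usp6nl, chosen after seeing the data, changed 0 calls, and with the symbols of the platform annotation 5 members were lower and 3 higher. Signal over background was not given per probe set, so how much low signal limits Usp13 and Ube2d2b was not tested.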
